A study of Rattus norvegicus with 4 samples.

Results

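Vascular endothelial cells of the rat abdominal midline fascia were taken from 4 single-cell libraries by the genes detected in each cell, and made up 464 of 34904 cells that passed quality control, out of 38282 deposited cells. A cell was kept when it had a UMI (a counted RNA molecule) for at least 3 of the 5 endothelial genes Pecam1, Cdh5, Plvap, Emcn and Ptprb. It also had no UMI of the leukocyte gene Ptprc, under 2 UMIs of the smooth muscle actin gene Acta2, and under 20 UMIs of Col1a1, Col1a2 and Col3a1 together per 10000 UMIs. The collagen limit keeps out cells that carry RNA of fibroblasts, the main stromal cells of the tissue. The cells were thus chosen by the measured levels of these genes, which are given only as a description.

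The acupuncture group held 2 libraries from rats with Salmonella-induced dysentery that were then treated with acupuncture, and the dysentery group held 2 libraries from rats with the same induced dysentery. The tissue was the fascia under the skin at the site of the acupoints, digested to single cells with collagenase and elastase, freed of red and dead cells, and sequenced from the 3' end of transcripts. Strain, age, sex and the number of rats are not given in the sources used here, nor whether each library is from its own animal; p-values therefore measure only the spread between libraries. The groups follow the library titles, with which the descriptions and the design text match. In all 4 libraries the label for treatment gives the other group instead, and every direction given rests on the titles.

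Endothelial cells line all blood vessels and control what passes between blood and tissue. Arterial, capillary and venous cells differ in the genes they use: arterial cells are coupled by gap junctions and use Notch signalling, capillary cells take up lipids and solutes, and the cells of venules hold the selectins and adhesion molecules by which leukocytes leave the blood. In inflamed tissue the venules are the main site of leukocyte entry, and activated endothelium can itself make chemokines.

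The library of acupuncture replicate 1 gave 130 endothelial cells, that of acupuncture replicate 2 gave 185, that of dysentery replicate 1 gave 57, and that of dysentery replicate 2 gave 92. Their summed UMIs came to 664450 and 1102302 in the acupuncture libraries and to 426646 and 621775 in the dysentery libraries. The median endothelial cell held 2832.5 and 4424 UMIs with acupuncture, against 7144 and 6597 UMIs with dysentery, whereas the median over all cells passing quality control lay between 6786 and 9377 UMIs in the 4 libraries. Endothelial cells were thus shallower in both acupuncture libraries. The median share of mitochondrial UMIs in an endothelial cell was 4.60% and 4.73% with acupuncture, against 2.28% and 2.11% with dysentery, and over all cells it was 3.45% and 3.53% against 3.71% and 3.13%. Each pair of libraries shared 19 to 32 cell barcodes, none of them of an endothelial cell.

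The 5 genes that chose the cells were high in them by choice. Plvap, which forms the diaphragms of endothelial vesicles and pores, averaged 2847 CPM (counts scaled to a common library size) over all endothelial cells and 7.08 CPM over all other cells. Pecam1, a junctional adhesion molecule, was detected in 95.9% of the cells, Ptprb, a phosphatase at endothelial junctions, in 93.8%, and Cdh5, the endothelial cadherin, in 89.7%. Emcn, an endothelial sialomucin, was detected in 82.3% and Plvap in 80.8%.

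The label was checked against 20 further endothelial genes that took no part in the selection. They ranged widely, from Lyl1, a transcription factor, in 4.31% of the cells to Eng, a co-receptor for BMP ligands, in 85.3%. Egfl7, a secreted endothelial factor, had a UMI in 82.8%, Tie1, a receptor kinase, in 68.8%, Kdr, the main VEGF receptor, in 52.4% and Cd34, a surface sialomucin, in 20.0%. By level all but Cd34 and Lyl1 were concentrated in the chosen cells. Egfl7 averaged 585 CPM there and 8.69 CPM in all other cells, and Erg, an endothelial transcription factor, 284 CPM and 0.778 CPM. Cd34 was about equal, at 42.63 CPM in the chosen cells and 38.82 CPM in all other cells. Lyl1 was lower in the chosen cells, at 11.01 CPM against 42.48 CPM. Cldn5, Flt1, Robo4 and Ramp2 had no row under their symbols. Of the selected cells, 274 had all 5 selection genes, 113 had 4 and 77 had 3, and 33 further cells missed selection with 2. Collagen UMIs per 10000 ranged up to 19.83 among the cells kept, with a median of 3.12 and 104 cells at 0, and began at 20.32 among the 54 cells that failed on collagen alone.

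RNA of other cell types was low but not absent. The summed level of 10 fibroblast genes was 604 and 945 CPM with acupuncture and 2309 and 1013 CPM with dysentery, and 1 cell of dysentery replicate 1 held 199 of that library's 262 Dcn UMIs. The summed level of 10 macrophage genes was 438 and 423 CPM with acupuncture and 157 and 98.1 CPM with dysentery. T cell and B cell genes were at 0 for 6 of 9 measured, and the adipocyte genes Adipoq, Plin1, Cidec and Lep were all at 0. A single cell of acupuncture replicate 2 held 3151 of that library's 3196 endothelial UMIs of the haemoglobin gene Hbb-b1. Lymphatic endothelium, which the rule does not exclude, was present: Ccl21, the chemokine of lymphatic vessels, had 18 and 7119 UMIs with acupuncture and 1116 and 0 UMIs with dysentery, all from 12 cells. The set is therefore blood vessel endothelium with a minority of lymphatic cells.

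The share of endothelial cells among cells passing quality control was 1.58% (95% Clopper-Pearson interval 1.32% to 1.87%) and 2.00% (1.72% to 2.31%) in the acupuncture libraries. In the dysentery libraries it was 0.855% (0.648% to 1.11%) and 0.857% (0.691% to 1.05%). Both acupuncture libraries lay above both dysentery libraries, with a mean of 1.79% ± 0.300 (SD, n = 2) against 0.856% ± 0.00105 (SD, n = 2), a difference of 0.932 percentage points (exact two-sided permutation test over libraries, p = 0.333, the smallest p that 2 libraries against 2 can give). The intervals cover counting error only. With each cell thinned to 2000 UMIs before the rule was applied, the difference was 0.664 points. Among cells without a Ptprc UMI, it was 1.71 points. Endothelial depth and mitochondrial share moved with this difference; with cells over 10% mitochondrial UMIs left out, it was 0.756 points.

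**Figure D1:**
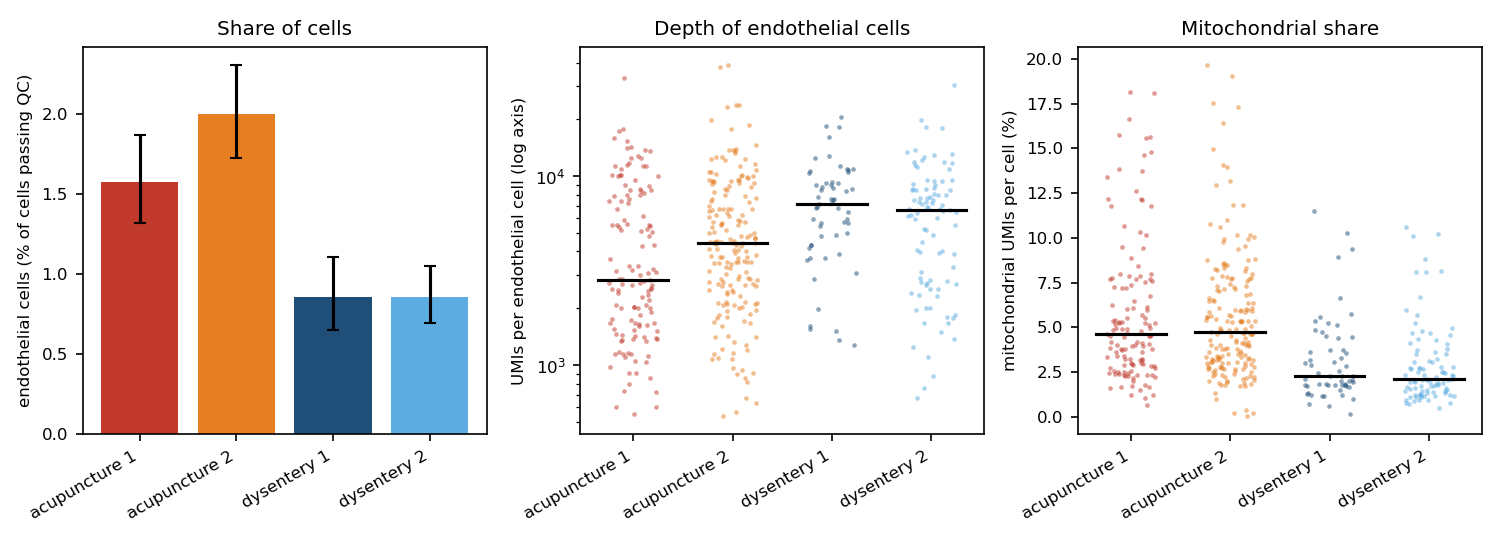
Share of cells that are endothelial (left, percent of cells passing quality control, bars with 95% Clopper-Pearson intervals), UMIs per endothelial cell (middle, log axis, a point per cell and a line at the median) and mitochondrial share of UMIs (right, percent, a point per cell and a line at the median), by library. Both acupuncture libraries have the higher share of endothelial cells (1.58% and 2.00% against 0.855% and 0.857%), and their endothelial cells have fewer UMIs and a higher mitochondrial share.

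Cells of different vessel segments could be told apart within the 464 cells. Ackr1, the atypical chemokine receptor of venules, was detected in 235 cells, and Selp, the P-selectin gene, had a UMI in 50.2% of these against 1.31% of the 229 cells without Ackr1. Sele, the E-selectin gene, was likewise found in 54.9% of cells with Ackr1 and in 3.93% of cells without it. Gja4, a connexin of arterial gap junctions, was found in 0.426% of cells with Ackr1 and in 25.8% of cells without it. Gpihbp1, which anchors lipoprotein lipase on capillary endothelium, was found with Rgcc, a capillary gene, in 51.6% of its 157 cells, against 7.49% of the 307 cells without Gpihbp1. These are shares of cells of all 4 libraries and are not corrected for depth.

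Sets of cells were formed from Gja4 or Gja5 (arterial), Gpihbp1 or Rgcc (capillary), Ackr1 or Selp (venous) and at least 2 of Prox1, Lyve1, Flt4 and Mmrn1 (lymphatic). Venous-marked cells were the most numerous in every library but dysentery replicate 1, at 50 and 77 with acupuncture and 12 and 40 with dysentery. Capillary-marked cells numbered 32 and 29 with acupuncture and 19 and 18 with dysentery. Arterial-marked cells numbered 23 and 22 with acupuncture and 11 and 9 with dysentery. Cells with both venous and capillary genes numbered 3 and 19 with acupuncture and 8 and 23 with dysentery, and had a median of 8523 UMIs, against 6005 UMIs in venous-marked cells. Lymphatic-marked cells numbered 2 and 9 with acupuncture and 5 and 0 with dysentery, and cells with none of these genes numbered 20 and 29 with acupuncture and 2 and 2 with dysentery.

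Genes that did not form the sets followed them. Their shares of cells are not corrected for depth. Arterial-marked and capillary-marked cells both had a lower median depth than venous-marked cells in every library. Vwf, the clotting factor carrier stored in endothelium, was detected in 83.8% of venous-marked cells, 25.5% of capillary-marked cells and 30.8% of arterial-marked cells. The leukocyte adhesion molecules Icam1 and Vcam1 were detected in 52.5% and 35.8% of venous-marked cells, and in 5.1% and 3.1% of capillary-marked cells. Nr2f2, a transcription factor of venous identity, was detected in 65.9% of venous-marked cells and 9.2% of arterial-marked cells. Cxcl12, a homing chemokine, showed the opposite order, with 36.3% in venous-marked, 84.7% in capillary-marked and 78.5% in arterial-marked cells. Fabp4, a fatty acid binding protein of the microvasculature, reached 19150 CPM in capillary-marked cells and 9964 CPM in venous-marked cells, and had no UMI in the 16 lymphatic-marked cells.

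**Figure D2:**
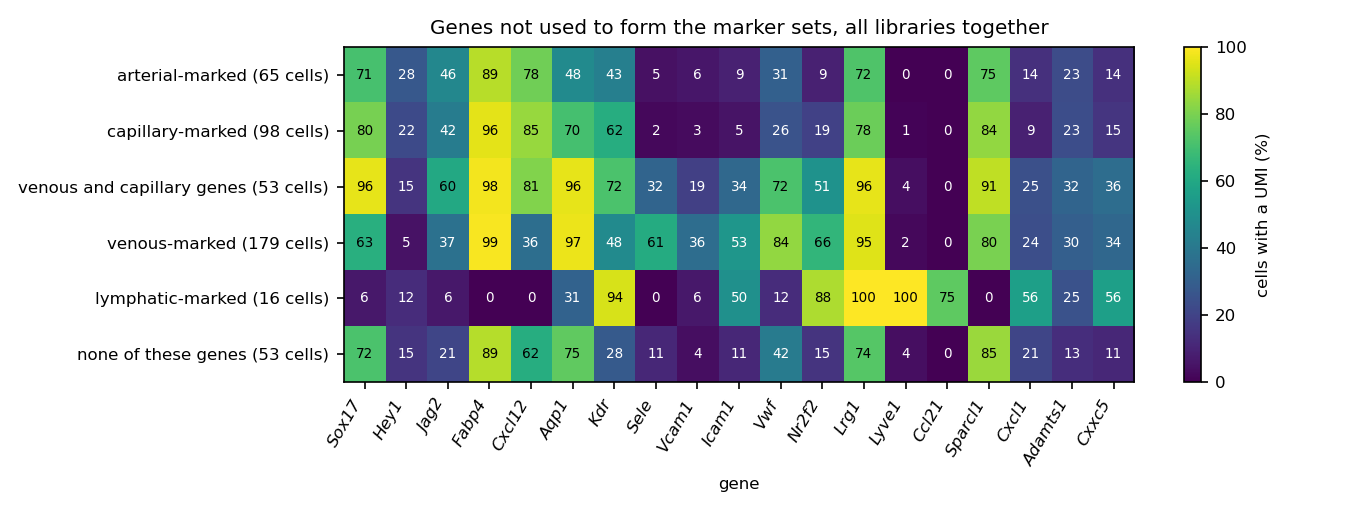
Share of cells with a UMI (percent, colour and number) of genes that did not form the sets (columns), in each set of endothelial cells (rows), all 4 libraries together. Sele, Vcam1, Icam1, Vwf and Nr2f2 are most widespread in venous-marked cells among the 3 blood vessel sets (Vwf 84%), Cxcl12 in arterial-marked and capillary-marked cells, and Lyve1 and Ccl21 in lymphatic-marked cells. Shares are not corrected for depth.

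The segment genes were compared between groups at a fixed depth, with each cell thinned to 2000 UMIs, which kept 87 and 153 cells with acupuncture and 51 and 79 cells with dysentery. A single random draw of 2000 UMIs per cell moves the share of a low gene, so the share expected over all such draws is given beside it; this calculation was chosen after seeing the data. By the draw and by the expected share alike, 4 of 17 arterial, venous and capillary genes had groups that did not overlap, 3 higher and 1 lower with acupuncture, but only Vwf, Sox17 and Gpihbp1 were among the 4 both times. For each such gene the two-sided exact permutation p was 0.333, the smallest possible, so none could pass a threshold of 0.05. Over the levels of all 6559 genes tested, the groups did not overlap for 43.8%. Without thinning, 7 of the 17 had groups that did not overlap, 1 higher and 6 lower with acupuncture, so the split between directions depends on the fixed depth.

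Vwf had a UMI in 43.7% and 44.4% of the thinned cells with acupuncture, and in 11.8% and 26.6% with dysentery. Both acupuncture libraries were higher, by 24.9 percentage points on average, and by 23.1 points in the expected shares (43.8% and 44.7% against 11.8% and 30.5%). In fibroblast-like cells, which should lack Vwf, the thinned share was between 0.0293% and 0.135% in the 4 libraries.

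Gpihbp1 was lower with acupuncture by its share: 27.6% and 15.7% of thinned cells had a UMI, against 39.2% and 36.7% with dysentery. The expected shares were 26.8% and 17.5% with acupuncture and 42.9% and 38.5% with dysentery. Its share in fibroblast-like cells was at most 0.0818%. Rgcc, by contrast, overlapped between groups in this share, at 24.1% and 9.15% with acupuncture and 37.3% and 16.5% with dysentery. The level of Gpihbp1 over the summed UMIs, given further below, did overlap between groups.

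Other segment genes depended on the draw or, for Sox17, on thinning. Sox17, a transcription factor of arterial and capillary endothelium, was found in 50.6% and 53.6% of cells with acupuncture and in 37.3% and 43.0% with dysentery, but its expected shares were 51.5% and 54.0% against 50.4% and 43.6%, and without thinning its difference was -1.35 points, with overlap. Nr2f2 overlapped in the draw, and its expected shares were 33.6% and 28.7% with acupuncture against 13% and 28.4% with dysentery. Gja5, an arterial connexin, did not overlap in the draw and overlapped in the expected shares (3.91% and 3.52% with acupuncture, 4.01% and 0.792% with dysentery).

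Several venous genes differed between the 2 dysentery libraries. Ackr1 was found in 47.1% and 41.8% of thinned cells with acupuncture, and in 23.5% and 57.0% with dysentery; fibroblast-like cells had it in 8.66% to 14%. Sele was found in 26.4% and 22.2% of cells with acupuncture, and in 3.92% and 36.7% with dysentery. Selp and Vcam1 ran the same way, each being lowest in dysentery replicate 1 at 1.96% and highest in dysentery replicate 2 at 22.8% and 17.7%. For these 4 genes the acupuncture libraries lay between the dysentery libraries, in the expected shares too. Leaving out a dysentery library sets 1 library against 2, where groups overlap less readily. Counts of genes without overlap are then not comparable.

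**Figure D3:**
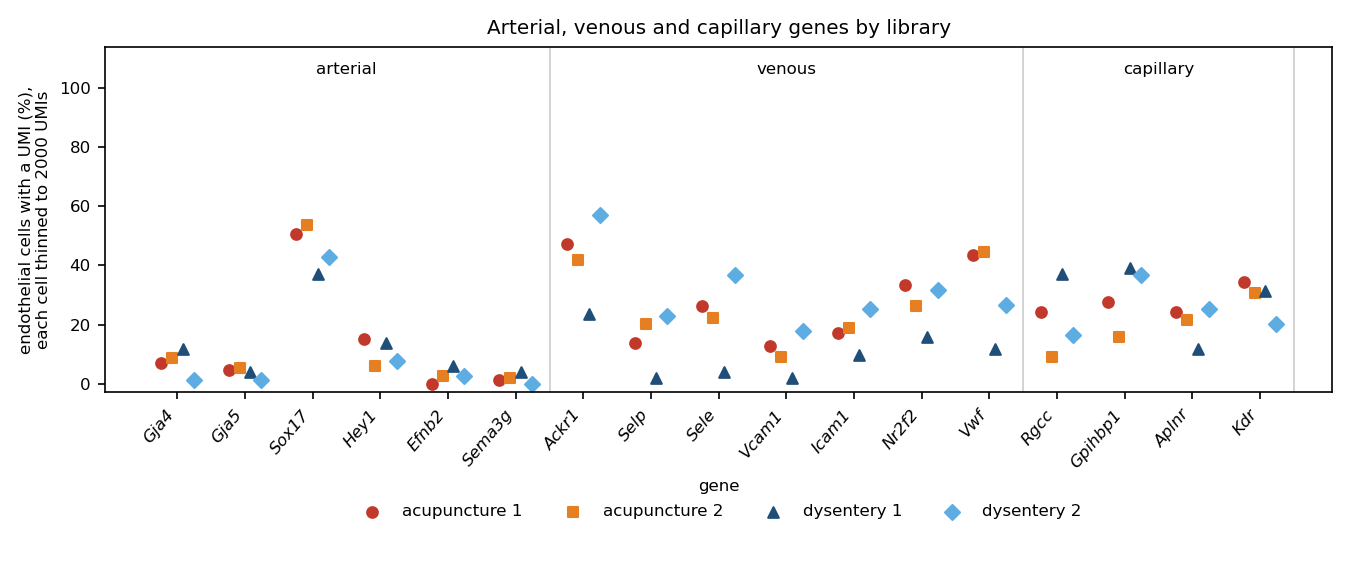
Share of endothelial cells with a UMI (percent, each cell thinned to 2000 UMIs) for 17 arterial, venous and capillary genes, a point per library. Values are of 1 random draw. Vwf is higher and Gpihbp1 lower in both acupuncture libraries, while Ackr1, Selp, Sele and Vcam1 are lowest in dysentery replicate 1 and highest in dysentery replicate 2.

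Gene levels were then compared between groups over the summed UMIs of the endothelial cells of each library, with edgeR's quasi-likelihood test and Benjamini-Hochberg adjustment over 6559 genes. At an adjusted p under 0.05, 20 genes (0.305%) were called, 15 higher (0.229%) and 5 lower (0.0762%) with acupuncture. At an unadjusted p under 0.05 there were 698 genes. The rises included Cxcl1, Cxcl2, C1qa, C1qb, C1qc and 4 mitochondrially encoded genes; the 5 falls were Scgb1a1, AC112568.1, Acaa2, Ppa1 and Eef1a1. The median log2 fold change of all genes tested was 3.12e-05, with 3280 genes above 0 and 3279 below.

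**Figure D4:**
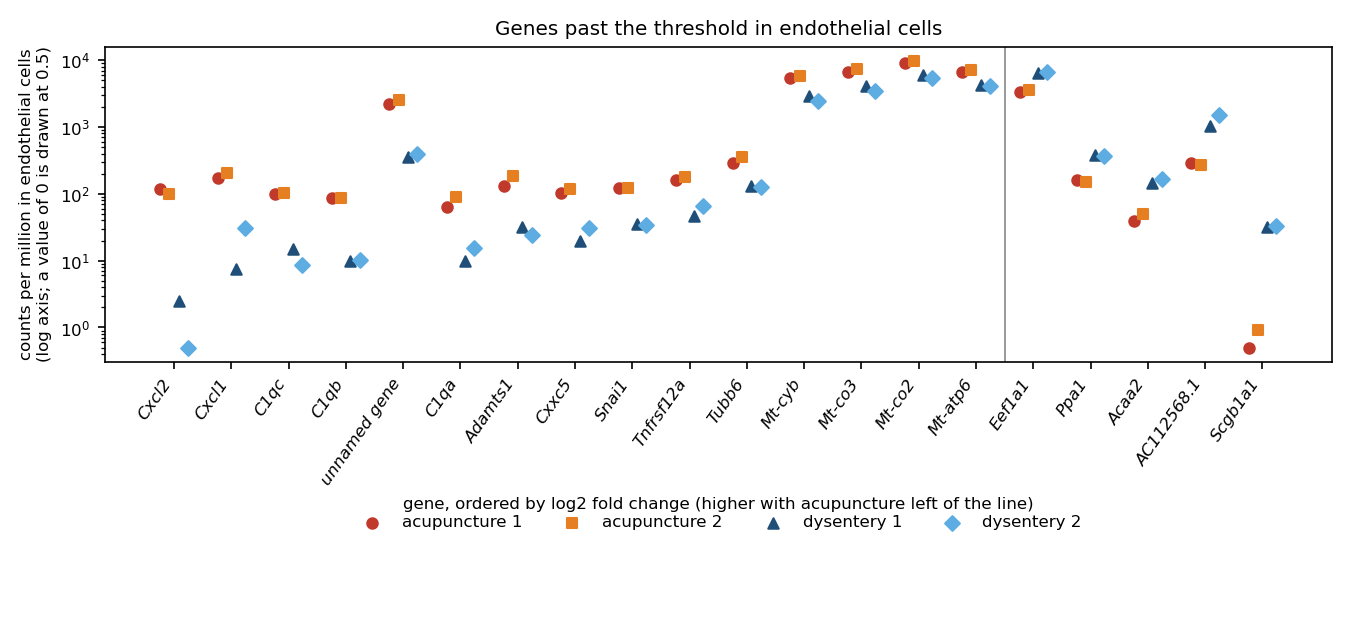
Level (CPM, log axis, values of 0 drawn at the lower end of the plot) of the 20 genes past the threshold, a point per library, ordered by log2 fold change of acupuncture over dysentery. The groups do not overlap for any of the 20 genes; the mitochondrially encoded genes and Eef1a1 are among the most abundant, and Cxcl2 and Scgb1a1 are near 0 in a group.

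Cxcl1 and Cxcl2, ligands that draw neutrophils through the receptor Cxcr2, rose with acupuncture. Cxcl1 stood at 175 and 202 CPM with acupuncture and at 7.46 and 30.8 CPM with dysentery, from 117 and 220 against 3 and 18 UMIs. Both acupuncture libraries were higher, by a log2 fold change of 3.16 ± 0.38 (SE; adjusted p = 0.0225, edgeR). It was detected in 22 and 62 cells with acupuncture and in 3 and 7 cells with dysentery. Cxcl2 had 79 and 108 UMIs with acupuncture and 1 and 0 UMIs with dysentery, a ratio of 111 after scaling to each group's UMIs, with a counting interval of 19.7 to 4406 (adjusted p = 0.00948, edgeR). The Cxcl2 UMIs were concentrated: a single cell held 67 of the 79 and a single cell 89 of the 108.

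Il6, the cytokine gene, had 11 and 17 UMIs with acupuncture and none with dysentery, which is at least 5.54-fold higher after scaling to each group's UMIs, against a floor of 3 UMIs over the dysentery libraries, and was too low to be tested. Ccl2 and Ccl7, monocyte-attracting chemokines, did not pass the test. Ccl2 stood at 77.8 and 227 CPM with acupuncture and at 42.3 and 13.7 CPM with dysentery (log2 fold change 2.60 ± 0.62, adjusted p = 0.219, edgeR). Ccl7 stood at 74.8 and 154 CPM with acupuncture and at 12.4 and 42.8 CPM with dysentery. Of the 28 cytokine and chemokine genes listed, 14 were tested, 2 rose and none fell, with a median log2 fold change of -0.16. Over all genes tested, 0.229% were called higher and 0.0762% lower.

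The same chemokines were abundant outside the endothelium. Over all other cells, Cxcl1 stood at 979 and 2019 CPM with acupuncture and at 70.4 and 67.6 CPM with dysentery, and Cxcl2 at 1243 and 2191 CPM against 340 and 95.3 CPM. At 2000 UMIs, Cxcl1 was found in 9.20% and 12.4% of endothelial cells with acupuncture and in 1.96% and 3.8% with dysentery, below its 26.6% and 42.7% against 3.64% and 9.71% in fibroblast-like cells. Cxcl2 was found in 3.45% and 3.27% of endothelial cells with acupuncture and in none of those with dysentery, and in 4.67% and 7.98% against 3.23% and 0.321% of fibroblast-like cells. Every endothelial share was below the fibroblast-like share of the same library. In macrophage-like cells at the same depth, Cxcl1 was found in 31% and 54.5% with acupuncture and in 4.37% and 3.9% with dysentery. Cxcl2 was found there in 55.7% and 76.7% with acupuncture and in 16.7% and 10.6% with dysentery. Fibroblasts can make these chemokines themselves, so their share is no measure of free RNA, whose part in the result was not tested. With the 7 endothelial cells left out that had at least 3 of 6 macrophage genes (5 and 2 with acupuncture, none with dysentery), the Cxcl1 log2 fold change was 2.73 (adjusted p = 0.099, edgeR) and the Cxcl2 adjusted p was 0.204. With the highest cell of each gene left out in each library, the Cxcl1 adjusted p was 0.00745. Cxcl2 then had 12 and 19 UMIs left with acupuncture and none with dysentery, and its adjusted p was 0.078. In cells with at least 4 of 5 endothelial genes, the Cxcl1 log2 fold change was 2.77 (adjusted p = 0.108, edgeR). There, and at a mitochondrial limit of 10%, Cxcl2 was too low to be tested. With every cell left out that had any UMI of Prox1, Lyve1, Flt4 or Mmrn1, the Cxcl2 adjusted p was 0.0631 (edgeR).

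The promoters of the 2 called chemokine genes are shown because both genes moved together, beside that of Cxcl10, a T cell attracting chemokine whose endothelial level did not move with them. The sequences are the 250 bases before the start of each gene from RefSeq (build GRCr8), 5' to 3' on the strand of the gene; capitals mark matches of the NF-kB consensus on either strand and, in Cxcl10, of an interferon-response type motif (GAAA and, after 2 bases of any kind, again GAAA).
Cxcl1: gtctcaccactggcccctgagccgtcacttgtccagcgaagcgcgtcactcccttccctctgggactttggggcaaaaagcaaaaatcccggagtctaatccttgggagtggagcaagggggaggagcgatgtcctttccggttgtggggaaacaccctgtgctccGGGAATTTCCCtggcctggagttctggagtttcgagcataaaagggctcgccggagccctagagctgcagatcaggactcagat
Cxcl2: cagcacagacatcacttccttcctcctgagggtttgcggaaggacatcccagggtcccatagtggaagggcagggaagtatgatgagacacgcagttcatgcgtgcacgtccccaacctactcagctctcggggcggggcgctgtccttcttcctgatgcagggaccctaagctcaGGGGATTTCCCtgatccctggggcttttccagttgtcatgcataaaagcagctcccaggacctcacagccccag
Cxcl10: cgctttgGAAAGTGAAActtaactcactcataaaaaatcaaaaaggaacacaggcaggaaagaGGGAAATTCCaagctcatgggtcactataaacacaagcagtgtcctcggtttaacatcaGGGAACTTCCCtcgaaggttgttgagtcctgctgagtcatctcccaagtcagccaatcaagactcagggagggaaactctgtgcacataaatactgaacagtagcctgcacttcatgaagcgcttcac
The window of Cxcl1 lies at chr14:17479322-17479571 on the minus strand and that of Cxcl2 at chr14:17467256-17467505 on the minus strand. That of Cxcl10 lies at chr14:15988816-15989065 on the plus strand. The NF-kB consensus had 2 overlapping matches in Cxcl1, beginning 84 and 83 bases before the start, and 2 overlapping matches in Cxcl2, beginning 74 and 73 bases before it. Cxcl10 had NF-kB matches beginning 187, 128 and 127 bases and an interferon-response type match beginning 243 bases before its start. Of 33469 promoter windows of this length, 6.33% held the NF-kB consensus and 3.41% held the interferon-response type motif, on either strand. A match describes letters in the window and not binding.

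Cxcl10 was read in the same cells at 102 and 112 CPM with acupuncture and at 192 and 259 CPM with dysentery. Both acupuncture libraries were lower, with a log2 fold change of -1.08 ± 0.21 and an adjusted p of 0.136 (edgeR), short of the threshold. Among the 16 tested genes of the NF-kB response list, none was called and the median log2 fold change was 0.01. Nfkbia, the inhibitor of NF-kB that the factor itself induces, stood at 995 and 1114 CPM with acupuncture and at 868 and 1190 CPM with dysentery, overlapping between groups.

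Adamts1, a secreted protease that cuts matrix proteoglycans, rose with acupuncture and stayed called in each of the 19 alternative settings tried. It stood at 133 and 187 CPM with acupuncture and at 32.3 and 24 CPM with dysentery. Both acupuncture libraries were higher, by a log2 fold change of 2.55 ± 0.29 (adjusted p = 0.0199, edgeR). It was detected in 33 and 65 cells with acupuncture and in 10 and 12 cells with dysentery, and no cell held more than 15 of its UMIs. At 2000 UMIs it was found in 17.2% and 21.6% of endothelial cells with acupuncture and in 5.88% and 5.06% with dysentery, against 0.0649% to 0.731% of macrophage-like cells. Fibroblast-like cells had it in 17.2% and 16.0% with acupuncture and in 9.28% and 7.14% with dysentery, so that the endothelial share was higher than theirs only in acupuncture replicate 2 (17.2% in both classes of acupuncture replicate 1). Its level was higher with acupuncture in arterial-marked cells (181 against 32.6 CPM, cells of each group pooled), capillary-marked cells (136 against 38.3 CPM) and venous-marked cells (181 against 20.4 CPM). It was the 1 call among 17 tested genes of the basement membrane and matrix list, whose median log2 fold change was 0.36 (0.305% of all genes tested were called).

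Snai1, a transcriptional repressor of cadherins, stood at 123 and 123 CPM with acupuncture and at 34.8 and 34.2 CPM with dysentery (log2 fold change 1.83 ± 0.22, adjusted p = 0.0225, edgeR). The libraries of each group were close to each other and the groups did not overlap. The remaining cells of the libraries held 14.7 and 13.1 CPM with acupuncture and 7.48 and 7.21 CPM with dysentery. In endothelial cells Snai1 was pooled at 143 against 27.3 CPM in capillary-marked cells and at 138 against 15.3 CPM in venous-marked cells, but at 77.4 against 73.3 CPM in arterial-marked cells. The arterial-marked value with dysentery rests on only 11 and 9 cells, and the sets were not tested against each other.

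Cxxc5, a zinc finger gene that acts in BMP and Wnt signalling, rose to 102 and 117 CPM with acupuncture, against 19.9 and 30.8 CPM with dysentery (log2 fold change 2.07 ± 0.27, adjusted p = 0.0316, edgeR). The groups did not overlap. Pooled over cells, it stood at 154 against 30.6 CPM in venous-marked cells and at 31.0 against 24.5 CPM in arterial-marked cells. The arterial-marked value with dysentery rests on only 11 and 9 cells. No test was made between these sets.

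Tnfrsf12a, the receptor for the cytokine TWEAK, stood at 162 and 176 CPM with acupuncture and at 47.3 and 65.1 CPM with dysentery (log2 fold change 1.56 ± 0.22, adjusted p = 0.0374, edgeR). Tubb6, a tubulin gene, stood at 293 and 352 CPM with acupuncture and at 129 and 127 CPM with dysentery (log2 fold change 1.34 ± 0.19, adjusted p = 0.0394, edgeR). Neither overlapped between groups. Without acupuncture replicate 2, neither of these genes, nor Snai1 or Cxxc5, passed the test, with adjusted p between 0.057 and 0.126 (edgeR). Without acupuncture replicate 1, Tnfrsf12a was also lost.

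C1qa, C1qb and C1qc encode the chains of the first complement component, which is made chiefly by macrophages. C1qb stood at 86.8 and 87.0 CPM with acupuncture and at 9.95 and 10.3 CPM with dysentery (log2 fold change 3.08 ± 0.31, adjusted p = 0.0124, edgeR). C1qc stood at 98.8 and 104 CPM with acupuncture and at 14.9 and 8.56 CPM with dysentery, and C1qa at 62.9 and 89.8 CPM with acupuncture and at 9.95 and 15.4 CPM with dysentery. Each was higher in both acupuncture libraries, but without the collagen limit on the cells all 3 changed sign in the summed UMIs, to log2 fold changes of -0.63 for C1qa, -0.10 for C1qb and -0.05 for C1qc. The share of cells did not change direction without that limit. The expected shares at 2000 UMIs stayed higher in both acupuncture libraries for all 3, for C1qb at 11.2% and 8.25% against 1.69% and 3.51%.

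C1qa was also higher with acupuncture in macrophage-like and fibroblast-like cells. In macrophage-like cells C1qa stood at 7071 and 6377 CPM with acupuncture and at 3309 and 3566 CPM with dysentery, and in fibroblast-like cells at 286 and 365 CPM against 178 and 78.8 CPM. At 2000 UMIs C1qa was found in 6.90% and 6.54% of endothelial cells with acupuncture and in none and 3.8% with dysentery. Fibroblast-like cells had it in 10.0% and 9.24% with acupuncture and in 6.71% and 3.26% with dysentery, above the endothelial share in all libraries but dysentery replicate 2. For C1qb the exception was acupuncture replicate 1 (10.3% of endothelial against 9.99% of fibroblast-like cells). For C1qc it was dysentery replicate 1 (5.88% against 5.36%). With the 7 cells left out that had at least 3 of 6 macrophage genes, the log2 fold changes were 0.94 for C1qa, 1.75 for C1qb and 1.47 for C1qc, with adjusted p of 0.490, 0.189 and 0.373 (edgeR). All 7 cells were from acupuncture libraries, and the 6 genes include C1qa, C1qb and C1qc themselves. Smaller changes were thus built into this choice of cells. The part of macrophage RNA in the endothelial C1q levels was not tested. Of the 10 macrophage genes listed, 5 were tested, these 3 rose and none fell (0.229% of all genes tested were called higher). Cd163, a scavenger receptor, and Adgre1, a surface marker of rodent macrophages, had 8 and 7 UMIs with acupuncture and none with dysentery.

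Of 13 mitochondrially encoded genes, 4 rose and none fell (0.229% of all genes tested were called higher). All 13 had a log2 fold change above 0, with a median of 0.71 (3280 of all 6559 genes tested lay above 0). Mt-cyb, the cytochrome b subunit, stood at 5354 and 5842 CPM with acupuncture and at 2913 and 2452 CPM with dysentery (log2 fold change 1.06 ± 0.13, adjusted p = 0.0225, edgeR). Both acupuncture libraries were higher. Mt-co3 and Mt-co2, cytochrome oxidase subunits, rose by 0.89 and 0.72 on the log2 scale, and Mt-atp6, an ATP synthase subunit, by 0.71. Mt-cyb was higher with acupuncture in pooled arterial-marked (6879 against 3243 CPM), capillary-marked (5205 against 2537 CPM) and venous-marked cells (5428 against 2891 CPM).

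The endothelial cells from the acupuncture libraries also had a lower depth and a higher mitochondrial share, which is counted from the mitochondrially encoded genes themselves. The part of RNA quality in these rises was not tested. In the remaining cells of the libraries, Mt-cyb stood at 4891 and 5313 CPM with acupuncture and at 5123 and 4627 CPM with dysentery, overlapping between groups. With endothelial cells over 10% mitochondrial UMIs left out, none of the 4 passed the test (adjusted p of Mt-cyb 0.0524, edgeR), with log2 fold changes nearly as large: 1.00 for Mt-cyb, 0.79 for Mt-co3, 0.62 for Mt-co2 and 0.62 for Mt-atp6. Nuclear genes of oxidative phosphorylation did not move with them: of 18 tested, none was called, 16 had a log2 fold change below 0, and the median was -0.14. Of all 6559 genes tested, 3279 lay below 0.

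Acaa2, a mitochondrial thiolase of fatty acid oxidation, fell to 38.9 and 50.4 CPM with acupuncture, against 144 and 168 CPM with dysentery (log2 fold change -1.78 ± 0.22, adjusted p = 0.0225, edgeR). Ppa1, a pyrophosphatase, fell to 162 and 150 CPM with acupuncture, against 381 and 373 CPM with dysentery (log2 fold change -1.27 ± 0.17, adjusted p = 0.0366, edgeR). In both genes the groups did not overlap, and the call was lost without either acupuncture library. Acaa2 was lower with acupuncture in pooled arterial-marked (56.8 against 187 CPM), capillary-marked (39.8 against 164 CPM) and venous-marked cells (38.8 against 115 CPM). In the remaining cells of the libraries Acaa2 stood at 62.2 and 48.5 CPM with acupuncture and at 90.9 and 96.4 CPM with dysentery.

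Eef1a1, the elongation factor that brings tRNA to the ribosome, fell to 3303 and 3563 CPM with acupuncture, against 6448 and 6546 CPM with dysentery (log2 fold change -0.92 ± 0.10, adjusted p = 0.0199, edgeR). The remaining cells showed the same order, with 2587 and 2651 CPM with acupuncture and 4803 and 4525 CPM with dysentery. An unnamed gene, ENSRNOG00000051885, rose in endothelial cells (log2 fold change 2.65 ± 0.17, adjusted p = 0.00153, edgeR), and stood in the remaining cells at 1647 and 1790 CPM with acupuncture and at 277 and 270 CPM with dysentery. The change of this gene in endothelial cells and in fibroblast-like cells differed by 0.03 ± 0.20 (log2; adjusted p = 1, edgeR interaction test).

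AC112568.1, a gene given only by a clone name, fell to 290 and 270 CPM with acupuncture, against 1040 and 1503 CPM with dysentery (log2 fold change -2.18 ± 0.21, adjusted p = 0.0124, edgeR). It was nearly confined to the endothelial cells by level, with 3.15 to 5.86 CPM in the remaining cells of the 4 libraries, and was found in 44 and 60 cells with acupuncture and in 32 and 59 cells with dysentery. Scgb1a1, a secretoglobin known from airway club cells, had 0 and 1 UMIs with acupuncture and 13 and 19 UMIs with dysentery, a ratio of dysentery over acupuncture of 53.9 after scaling to each group's UMIs, with a counting interval of 9.01 to 2196 (adjusted p = 0.0374, edgeR). No cell held more than 4 of its UMIs. The call was lost without acupuncture replicate 1 or 2 (adjusted p = 0.0784 and 0.0737, edgeR), with the replicate number as a block (0.0749) and with cells over 10% mitochondrial UMIs left out (0.0611).

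Among the groups of vascular genes, none of 15 tested arterial, 16 venous and 12 capillary genes was called. Their median log2 fold changes were 0.41, 0.28 and -0.41. Arterial genes had groups without overlap in 6 cases, all higher with acupuncture (22.2% of all genes tested were higher without overlap). Notch1, the main Notch receptor of arterial endothelium, stood at 172 and 178 CPM with acupuncture and at 114 and 92.5 CPM with dysentery (adjusted p = 0.238, edgeR). Gja4 stood at 80.8 and 103 CPM with acupuncture and at 49.8 and 12 CPM with dysentery (adjusted p = 0.253, edgeR), in 22 and 21 cells with acupuncture and 10 and 7 with dysentery.

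Fabp4 led the capillary list and was the most abundant of its genes, at 11840 and 5923 CPM with acupuncture and at 15870 and 18560 CPM with dysentery. Both acupuncture libraries were lower, but the difference did not pass the test (log2 fold change -0.95 ± 0.27, adjusted p = 0.286, edgeR). Sparcl1, a matricellular protein of vessel walls, stood at 1132 and 649 CPM with acupuncture and at 271 and 281 CPM with dysentery (log2 fold change 1.69 ± 0.27, adjusted p = 0.0610, edgeR). It missed the threshold and passed it in 12 of 19 alternative settings. Rgcc and Gpihbp1 varied within the acupuncture group and overlapped between groups, Rgcc standing at 516 and 95.3 CPM with acupuncture and at 600 and 276 CPM with dysentery, and Gpihbp1 at 1061 and 193 CPM against 1308 and 1017 CPM.

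Of 11 tested genes of the Notch pathway, 10 had a log2 fold change above 0 and the median was 0.69, and none was called. Over all 6559 genes tested, 3280 lay above 0 and the median was near 0. Hes1, a transcriptional target of Notch, stood at 129 and 192 CPM with acupuncture and at 42.3 and 59.9 CPM with dysentery (log2 fold change 1.64 ± 0.28, adjusted p = 0.0876, edgeR). Nrarp, a feedback inhibitor of Notch, stood at 98.8 and 91.6 CPM with acupuncture and at 32.3 and 34.2 CPM with dysentery (log2 fold change 1.5 ± 0.24, adjusted p = 0.0610, edgeR). For both, the groups did not overlap. Dll4, the arterial Notch ligand, overlapped, at 25.4 and 22.9 CPM with acupuncture and at 39.8 and 18.8 CPM with dysentery.

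Of 16 tested genes of BMP and TGF-beta signalling, 13 had a log2 fold change above 0 (3280 of all 6559 genes tested did), the median was 0.37 and none was called. Smad7, an inhibitory Smad, stood at 115 and 88.9 CPM with acupuncture and at 32.3 and 18.8 CPM with dysentery (log2 fold change 2.03 ± 0.31, adjusted p = 0.0571, edgeR). Smad6, the other inhibitory Smad, stood at 121 and 74.2 CPM with acupuncture and at 14.9 and 30.8 CPM with dysentery (adjusted p = 0.143, edgeR). Id1, a target of BMP signalling in endothelium, stood at 2250 and 1786 CPM with acupuncture and at 1142 and 1351 CPM with dysentery (adjusted p = 0.219, edgeR). All 3 were higher in both acupuncture libraries without passing the test.

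Immediate early genes, which cells switch on within minutes of a stimulus, had 22 tested members with none called, 20 log2 fold changes above 0 and a median of 0.56. Over all 6559 genes tested, 3280 lay above 0. Egr1, a zinc finger factor of this class, stood at 947 and 923 CPM with acupuncture and at 425 and 670 CPM with dysentery (adjusted p = 0.307, edgeR). Atf3, a stress-induced factor, stood at 539 and 592 CPM with acupuncture and at 184 and 423 CPM with dysentery (adjusted p = 0.403, edgeR). Jun overlapped between groups, at 2297 and 2057 CPM with acupuncture and at 1192 and 2132 CPM with dysentery. Of 10 tested tip cell and angiogenic genes, none was called and 9 lay above 0, with a median of 0.61; Angpt2, the ligand that destabilises vessels, stood at 145 and 120 CPM with acupuncture and at 27.4 and 65.1 CPM with dysentery (adjusted p = 0.189, edgeR).

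Interferon response genes lay the other way. Of 13 tested, none was called, 10 had a log2 fold change below 0 and all 10 had groups that did not overlap (21.5% of all genes tested were lower without overlap); the median was -0.64. Ifi27, an interferon-induced membrane protein, stood at 1601 and 1428 CPM with acupuncture and at 2341 and 2627 CPM with dysentery (log2 fold change -0.71 ± 0.14, adjusted p = 0.136, edgeR). Gbp5, an interferon-induced GTPase, stood at 38.9 and 23.8 CPM with acupuncture and at 87.1 and 140 CPM with dysentery (log2 fold change -1.94 ± 0.33, adjusted p = 0.0811, edgeR). Psmb9, a subunit of the immunoproteasome, stood at 205 and 319 CPM with acupuncture and at 540 and 635 CPM with dysentery (adjusted p = 0.155, edgeR).

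Of 10 tested genes of fatty acid uptake and lipid handling, 8 lay below 0 with a median of -0.71, and none was called (3279 of all 6559 genes tested lay below 0). Mgll, monoglyceride lipase, stood at 666 and 242 CPM with acupuncture and at 943 and 1034 CPM with dysentery (adjusted p = 0.390, edgeR). Of 12 tested genes of leukocyte adhesion, none was called and the median was -0.11; Icam1 stood at 126 and 199 CPM with acupuncture and at 72.1 and 185 CPM with dysentery. Of 12 shear stress genes and 12 junction genes tested none was called, with medians of -0.09 and 0.12. Klf2, the flow-induced factor of quiescent endothelium, stood at 1774 and 1668 CPM with acupuncture and at 1764 and 1921 CPM with dysentery.

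Nos3, the endothelial nitric oxide synthase, stood at 58.4 and 68.7 CPM with acupuncture and at 47.3 and 24 CPM with dysentery (adjusted p = 0.403, edgeR), and Edn1, the vasoconstrictor endothelin, at 98.8 and 104 CPM against 82.1 and 120 CPM. No member of the tone, haemostasis, caveolae, heat shock, glucocorticoid, antigen presentation or hypoxia lists was called, with medians between -0.22 and 0.29. Ptgs2, the inducible prostaglandin synthase, had 0 and 12 UMIs in endothelial cells with acupuncture and 1 and 0 with dysentery, too few to be tested. Its relative Ptgs1 stood at 83.8 and 104 CPM with acupuncture and at 62.2 and 103 CPM with dysentery. The proliferation genes Mki67 and Top2a had no UMI in any endothelial cell.

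The change with acupuncture was then compared between endothelial cells and the 17137 fibroblast-like cells, by an interaction test in edgeR with library as a block. Within fibroblast-like cells alone, 66 of 13758 genes (0.48%) were called between groups, and within macrophage-like cells alone 593 of 12051 (4.92%). Of 13081 genes, 21 (0.161%) differed in their change, 8 with a more positive and 13 with a more negative change in endothelial cells. Without the library block none passed, with 1093 genes at an unadjusted p under 0.05. Against the 6990 macrophage-like cells, 10 of 11730 genes (0.0853%) differed, 2 more positive and 8 more negative. Without either acupuncture library none of the macrophage comparison passed, with 553 or 524 genes at an unadjusted p under 0.05.

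Cxcl10 differed in both comparisons. Its log2 fold change was -1.08 in endothelial cells, 2.34 in fibroblast-like cells and 2.35 in macrophage-like cells, so that the difference was -3.38 ± 0.33 (adjusted p = 0.00250, edgeR interaction test) and -3.43 ± 0.31 (adjusted p = 0.00699). In fibroblast-like cells it stood at 42.2 and 68.9 CPM with acupuncture and at 13.2 and 9.33 CPM with dysentery, the reverse of the order in endothelial cells.

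Egr1, Jun, Atf3 and Btg2, of the immediate early class, changed less in endothelial than in fibroblast-like cells. Egr1 changed by 0.77 in endothelial and 3.0 in fibroblast-like cells, a difference of -2.17 ± 0.30 (adjusted p = 0.0202, edgeR interaction test). Jun changed by 0.39 against 2.46 and Atf3 by 0.88 against 3.95, with adjusted p of 0.0331 and 0.0466. Btg2, an antiproliferative early gene, changed by -0.19 against 2.15 (adjusted p = 0.00705). Fabp4 changed by -0.95 in endothelial and 1.58 in fibroblast-like cells, where it is far less abundant at 24.4 to 89.0 CPM (adjusted p of the difference 0.00400).

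Other genes had a more positive change in endothelial cells. Sparcl1 had a log2 fold change of 1.69 in endothelial and -0.55 in fibroblast-like cells, a difference of 2.20 ± 0.30 (adjusted p = 0.0202, edgeR interaction test). Mt-cyb had 1.06 against -0.07, a difference of 1.17 ± 0.18 (adjusted p = 0.0331). Ccn2, a matricellular protein, had 0.71 against -0.87 (adjusted p = 0.0331). Against macrophage-like cells, Cxxc5 had 2.07 against -0.25 (adjusted p = 0.0459), and Cd93, a lectin-like receptor of endothelium and myeloid cells, had 0.58 against -1.34 (adjusted p = 0.0312). A more negative change was found for Irf7, an interferon regulatory factor, with -0.73 against 1.86 in macrophage-like cells (adjusted p = 0.0256).

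For Cxcl1 and Adamts1 the tests found no difference between classes that passed. Cxcl1 changed by 3.16 in endothelial and 4.73 in fibroblast-like cells, a difference of -1.35 ± 0.40 (adjusted p = 0.359, edgeR interaction test), and Adamts1 by 2.55 and 1.60, a difference of 0.97 ± 0.37 (adjusted p = 0.581).

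**Figure D5:**
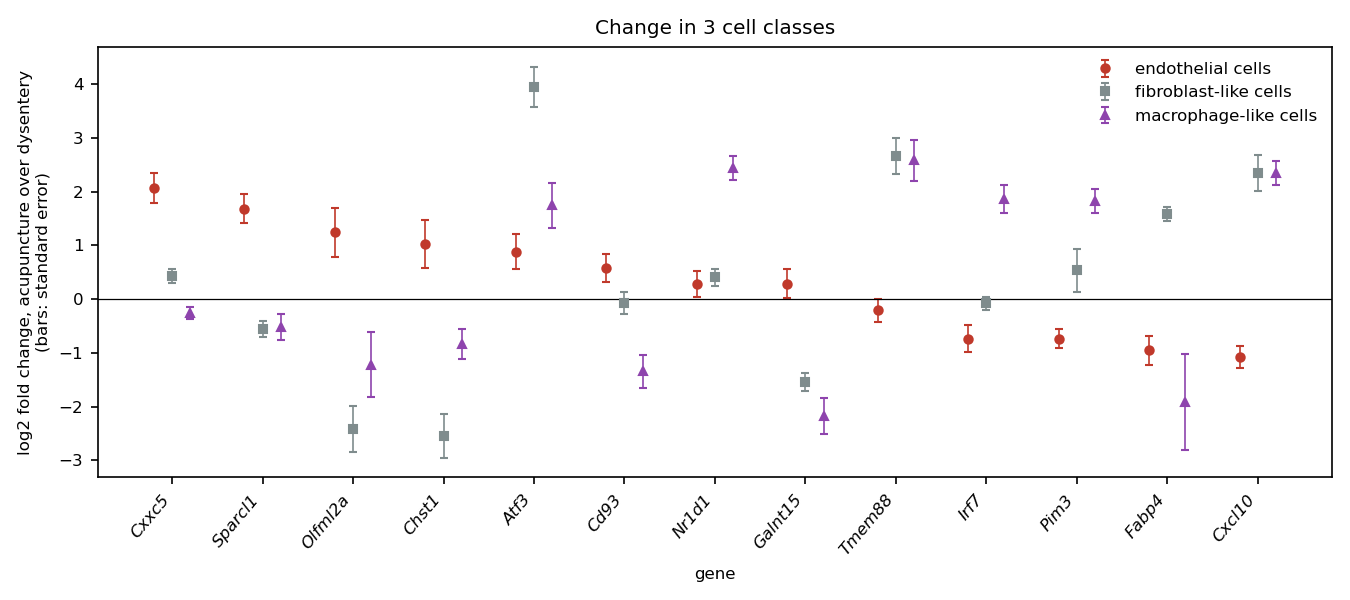
Log2 fold change of acupuncture over dysentery (points, with bars of 1 standard error) in endothelial, fibroblast-like and macrophage-like cells, for named genes whose change differed in an interaction test. Cxcl10 lies at -1.08 in endothelial cells and at 2.34 and 2.35 in fibroblast-like and macrophage-like cells, while Sparcl1 and Cxxc5 lie highest in endothelial cells.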

How the data were processed

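Single-cell RNA was counted in 4 libraries (10x, 3' ends), grouped by title. The authors deposited raw UMI counts, for 30560 gene rows per library; the submitters' processing notes name Cell Ranger 6.0.1, STAR and 2 builds (mRatBN7.2, GRCh38.p13), giving none of them a role. The deposited lists of barcodes and features hold no measurements but other content, the names of columns and rows. Cells with at least 300 genes and at most 20% mitochondrial UMIs (13 genes with symbols starting Mt-) were kept. Doublets (Scrublet in scanpy 1.11.5, Python 3.11.15, 0.8% per 1000 cells) were removed only in an alternative; 4 and 8 endothelial cells with acupuncture and 8 and 5 with dysentery scored as such.

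UMIs of endothelial cells were summed per library and tested with edgeR 4.0.16 (R 4.3.3), quasi-likelihood, TMM, filterByExpr at a minimum count of 10, no covariates, and Benjamini-Hochberg adjustment at 0.05. CPM are counts scaled to the UMIs of the tested genes and the TMM factors (0.966 to 1.04); in the remaining, fibroblast-like and macrophage-like cells, in pooled sets and in summed marker lists they are scaled to all UMIs. Log2 fold changes are acupuncture over dysentery, ± SE of the fit. Shares were tested by exact permutation over libraries (scipy 1.17.1). Intervals cover counting error only. Fibroblast-like cells had at least 3 of Dcn, Lum, Pdgfra, Col1a1, Col3a1 and Dpt and no UMI of Ptprc, Pecam1 or Cdh5; macrophage-like cells had at least 3 of C1qa, C1qb, C1qc, Cd68, Csf1r and Adgre1 and no UMI of Pecam1, Cdh5, Cd3e or Pdgfra. Alternatives were DESeq2 1.42.0, other scalings, filters and cell rules, and left-out libraries. On simulated counts of 6248 genes for the endothelial comparison, 94% of genes changed by 1.5 (log2) and 100% of those changed by 3 (log2) were called. The changes were placed only in genes with many UMIs, and all genes were given the same spread between libraries. The simulation therefore does not cover genes of few UMIs or genes whose UMIs lie mostly in a single cell.

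Genes were named where called (with a symbol, no overlap between groups and at least 20 CPM in the higher group, up to 12 a direction), as up to 4 calls or else the 2 most abundant members of each of 38 gene lists, from a set list of segment and response genes, and as the 5 largest calls of each interaction and direction. Smad6, Smad7, Nrarp, Dll4, Gbp5, Psmb9, Mgll, Ccl7, Ccn2, Btg2, Cd163, Adgre1, Mt-co2, Mt-atp6 and ENSRNOG00000051885 were added after their values were seen. The members and the gene lists were chosen with earlier results of these data known. Libraries of the same replicate number did not deviate together (correlation -0.0722 over 6559 genes). With 2 libraries a group this is a single value, which cannot exclude that the numbers pair them.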

Additional observations from a re-analysis of the deposited data

Results flagged for a closer look

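The genes below are those whose change with acupuncture differed most between endothelial cells and another class of cells, by the edgeR interaction test with library as a block; each value is the log2 change in endothelial cells minus that in the other class, over 2 acupuncture and 2 dysentery libraries.

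Against fibroblast-like cells, the change was more positive in endothelial cells for Olfml2a (3.752, adjusted p = 0.004), Chst1 (3.725, adjusted p = 0.0202), Sparcl1 (2.204, adjusted p = 0.0202), Galnt15 (1.905, adjusted p = 0.032) and the unnamed ENSRNOG00000068307 (1.661, adjusted p = 0.0331). Olfml2a, a secreted matrix protein, changed by 1.24 in endothelial and -2.41 in fibroblast-like cells. Chst1, a sulfotransferase of glycans, changed by 1.02 against -2.55. The change was more negative in endothelial cells for the unnamed ENSRNOG00000050647 (-4.122, adjusted p = 0.0025), Cxcl10 (-3.383, adjusted p = 0.0025), Atf3 (-3.039, adjusted p = 0.0466), Tmem88 (-2.836, adjusted p = 0.0025) and Fabp4 (-2.59, adjusted p = 0.004). Tmem88, a membrane inhibitor of Wnt signalling, changed by -0.21 in endothelial and 2.66 in fibroblast-like cells.

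Against macrophage-like cells, the change was more positive for Cxxc5 (2.319, adjusted p = 0.0459) and Cd93 (1.951, adjusted p = 0.0312). It was more negative for Cxcl10 (-3.428, adjusted p = 0.00699), Tmem88 (-2.851, adjusted p = 0.0459), Irf7 (-2.626, adjusted p = 0.0256), Pim3, a survival kinase (-2.604, adjusted p = 0.0256), and Nr1d1, a repressor of the circadian clock (-2.238, adjusted p = 0.0495). Nr1d1 changed by 0.28 in endothelial and 2.44 in macrophage-like cells. None of the 10 genes called against macrophage-like cells passed when either acupuncture library was left out.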

How the results depend on the processing

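The count of genes called between groups in endothelial cells was 20. It was 39 with DESeq2, 219 without the filter on low counts, 100 with doublets removed, 11 at a mitochondrial limit of 10%, 31 in cells with at least 2000 UMIs, 37 with every cell left out that had any UMI of Prox1, Lyve1, Flt4 or Mmrn1 (leaving 124 and 168 cells with acupuncture and 52 and 92 with dysentery, a wider removal than the lymphatic-marked set) and 37 with the highest cell of each gene left out. Leaving out each library in turn gave 17 to 140 (140 without dysentery replicate 1, 119 without dysentery replicate 2, 34 without acupuncture replicate 1 and 17 without acupuncture replicate 2). With the replicate number as a block it was 21, of which 15 were among the 20. Of the 20 calls, 4 (Adamts1, AC112568.1, Eef1a1 and ENSRNOG00000051885) were lost in none of the 19 settings. Leaving out the highest cell of each gene, or cells with at least 3 macrophage genes, was chosen after seeing the data.

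Without the collagen limit, C1qc (-0.04734), C1qb (-0.09605) and C1qa (-0.6263) changed sign on the log2 scale in the summed UMIs. Their expected shares of cells at 2000 UMIs stayed higher in both acupuncture libraries. Lyve1 in endothelial cells, a lymphatic receptor gene, had a log2 fold change of 8.482 with doublets removed, and of -2.16 to 10.36 with each library left out in turn. Of 93 named genes that were not called, 59 kept their direction in every setting and 31 passed the threshold in at least 1.

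The interaction with fibroblast-like cells called 21 genes. It called 39 with RLE scaling, 202 without the filter, 0 without the library block (no replicate block; 1093 at an unadjusted p under 0.05), 225 with doublets removed, 41 at the 10% limit, and 41 to 393 with a library left out. The interaction with macrophage-like cells called 10 genes. It called 16 with RLE scaling, 187 without the filter, 2 without the library block, 171 with doublets removed, 6 at the 10% limit, and 0 to 382 with a library left out. For both interactions the cause of these differences was not tested.

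Of 17 segment genes, 4 had groups that did not overlap. This count was 8 at 1000 UMIs, 7 without thinning and 2 without the collagen limit (which also changed the random draw). In the shares expected over all draws it was 4, with and without the collagen limit. With a library left out, a group holds a single library and groups overlap less readily, so the count is then not comparable. The difference in the endothelial share kept its direction in every alternative, between 0.664 and 1.71 points, and between 0.720 and 1.14 points with a library left out. With 2 libraries a group, no share could pass a threshold of 0.05, and 426646 UMIs in the smallest library limit what can be seen of low genes.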
